A study of Mus musculus with 6 samples.

Results

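Havcr1, Lcn2, Spp1 and Clu are 4 genes whose transcripts are widely used as markers of kidney tubule injury, and their levels were read in 6 libraries of mouse kidney cortex. They were chosen by symbol. Each symbol matched 1 of the 26971 features of the count table, and all 4 genes passed the filter on low counts that left 14274 genes for testing. The congested group was kidney cortex of male C57BL/6 mice after ischaemia-reperfusion injury (IRI) with added renal congestion, whose treatment label is IRI with IVCC (3 libraries). The other group was the same tissue, sex and strain after IRI without congestion, titled CLK_IRI (3 libraries). Both were sampled 1 day after surgery and carry replicate numbers 1 to 3. The labels expand neither CLK nor IVCC and give no age. Nothing in them ties each library to an animal of its own, so every p-value reflects the spread among these libraries, which may be technical. Every library came from an injured kidney, and uninjured kidney was not analysed here, so the levels cannot be set against a baseline.

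The 4 genes mark injury in different ways. Havcr1 encodes KIM-1, a membrane receptor for phosphatidylserine that appears on damaged proximal tubule cells and lets them take up dying cells. Lcn2 encodes NGAL, a secreted carrier of iron-binding siderophores made by injured distal nephron and stored in neutrophil granules. Spp1 encodes osteopontin, a secreted phosphoprotein that binds integrins and CD44 and is made by tubules and by macrophages. Clu encodes clusterin, a secreted chaperone that holds damaged proteins in solution.

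Total counts ranged from 10865860 to 14350425 per library, and the smallest count of any of the 4 genes was 960, so counting error was small beside the differences between libraries. Kidney cortex was recognisable in every library, with all 20 proximal tubule markers and all 10 podocyte markers above 0. Replicate 1 of both groups stood apart from the other 4 libraries in the summed proximal tubule markers, which lay at 13231 CPM in congested replicate 1 and 16290 CPM in IRI replicate 1, against 24117 to 25816 CPM in the others. CPM here is counts per 1e+06 counts of a library's tested genes, scaled by TMM (trimmed mean of M values). In whole tissue, fewer cells of a type and less RNA per cell cannot be told apart.

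The genes lie apart in the genome (GRCm38, GENCODE annotation), and all are protein-coding. Havcr1 is at chr11:46735080-46779578 on the plus strand. Lcn2 is at chr2:32384633-32388252 on the minus strand. Spp1 is at chr5:104435118-104441050 on the plus strand, and Clu is at chr14:65968483-65981547 on the plus strand. Their longest annotated transcripts hold 2030, 1374, 1507 and 1810 bases in the same order. Spp1 overlaps the annotated gene Gm42793 on the same strand, which held 7 to 79 counts per library, while none overlaps the other members.

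Lcn2 and Spp1 were the pair of members with the most similar pattern over the libraries, so the 250 bases before their RefSeq start sites (GRCm38.p6) are shown, 5′ to 3′ on the gene's own strand. The Lcn2 window is chr2:32387740-32387989 on the minus strand and the Spp1 window chr5:104434861-104435110 on the plus strand. The RefSeq start site lies 513 bases from the GENCODE 5′ end of Lcn2 and 7 bases from that of Spp1. Capitals mark matches to 7 motifs searched on both strands.
Lcn2: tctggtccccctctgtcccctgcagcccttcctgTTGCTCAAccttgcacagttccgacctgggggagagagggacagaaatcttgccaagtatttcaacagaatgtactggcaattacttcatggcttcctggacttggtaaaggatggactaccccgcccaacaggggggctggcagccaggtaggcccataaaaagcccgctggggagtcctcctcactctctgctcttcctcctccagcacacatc
Spp1: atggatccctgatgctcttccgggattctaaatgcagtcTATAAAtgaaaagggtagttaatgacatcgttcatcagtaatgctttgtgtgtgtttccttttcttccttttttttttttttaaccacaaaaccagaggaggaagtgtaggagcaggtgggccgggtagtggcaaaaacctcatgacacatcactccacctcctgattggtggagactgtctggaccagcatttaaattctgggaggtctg
The motifs were AP-1 (TGANTCA), NF-kB (GGGA, any 3 bases, then TCC), C/EBP (TTGCNNAA), STAT (TTCNNNGAA), HSF (GAANNTTC), TEAD (GGAATG) and the TATA box (TATAAA), and matches of different motifs did not overlap. The Lcn2 window held 1 match, to C/EBP, whose first base lies 216 bases before the start site. The Spp1 window held 1 match, to TATA, whose first base lies 211 bases before the start site. Havcr1 had a window in the RefSeq table too, with 0 matches. Windows of all genes held C/EBP in 9.56%, TATA in 12.4%, TEAD in 12.6%, STAT in 7.02%, AP-1 in 6.75%, HSF in 6.69% and NF-kB in 3.86% of 32851 cases. These matches are letters only, and none was tied to a factor.

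Havcr1, the receptor of injured proximal tubule, had group means closer to each other than its libraries were within a group. Congested replicates 1, 2 and 3 held 2122, 966.2 and 1063 CPM, against 2479, 1011.0 and 889.4 CPM in IRI replicates 1, 2 and 3. Replicate 1 was the high library of each group, the others lay close together, and the groups overlapped. Means were 1384 ± 641 CPM in congested IRI and 1460 ± 885 CPM in IRI (SD, n = 3 each). On the log2 scale congested over IRI came to -0.08 (standard error 0.49, 95% interval -1.23 to 1.07), with an adjusted p of 0.980 in edgeR's quasi-likelihood test. That interval takes in a log2 fold change of 1 in either direction.

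Lcn2, the siderophore carrier, had the widest relative spread of the 4 in IRI kidney. It lay at 856.3, 213.0 and 167.8 CPM in congested replicates 1, 2 and 3, against 1210 CPM, 206.7 and 84.8 CPM in IRI replicates 1, 2 and 3. The highest and the lowest library were both IRI libraries, so the congested range fell inside the IRI range. Means were 412 ± 385 CPM in congested IRI and 501 ± 618 CPM in IRI (SD, n = 3 each). Congested over IRI came to -0.28 on the log2 scale (standard error 1.0, 95% interval -2.62 to 2.06, edgeR adjusted p = 0.969).

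Spp1, which encodes osteopontin, was the most abundant of the 4 and among the most abundant transcripts of the whole tissue. It lay at 59308, 15333 and 8798 CPM in congested replicates 1, 2 and 3, against 40269, 13376 and 4792 CPM in IRI replicates 1, 2 and 3. Each congested library was above the IRI library of its own number, and the groups overlapped. In congested replicate 1 Spp1 was the gene with the most counts, rank 1, and took 5.81% of all counts (95% Clopper-Pearson interval 5.80 to 5.82%, counting error only). In IRI replicate 3 its share was 0.50% (0.495 to 0.504%), rank 6. Means were 27813 ± 27471 CPM in congested IRI and 19479 ± 18510 CPM in IRI (SD, n = 3 each). Congested over IRI came to 0.51 on the log2 scale (standard error 0.91, 95% interval -1.61 to 2.64, edgeR adjusted p = 0.943).

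Clu, the extracellular chaperone, differed from the other 3 in that replicate 2 was nearly as high as replicate 1 in congested kidney. Congested replicates 1, 2 and 3 held 1551, 1378 and 550.8 CPM, against 2396, 1025 and 295.6 CPM in IRI replicates 1, 2 and 3. Replicate 3 was the low library of each group. Means were 1160 ± 535 CPM in congested IRI and 1239 ± 1066 CPM in IRI (SD, n = 3 each), and congested over IRI came to -0.09 on the log2 scale (standard error 0.71, 95% interval -1.76 to 1.57, edgeR adjusted p = 0.982).

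**Figure D1:**
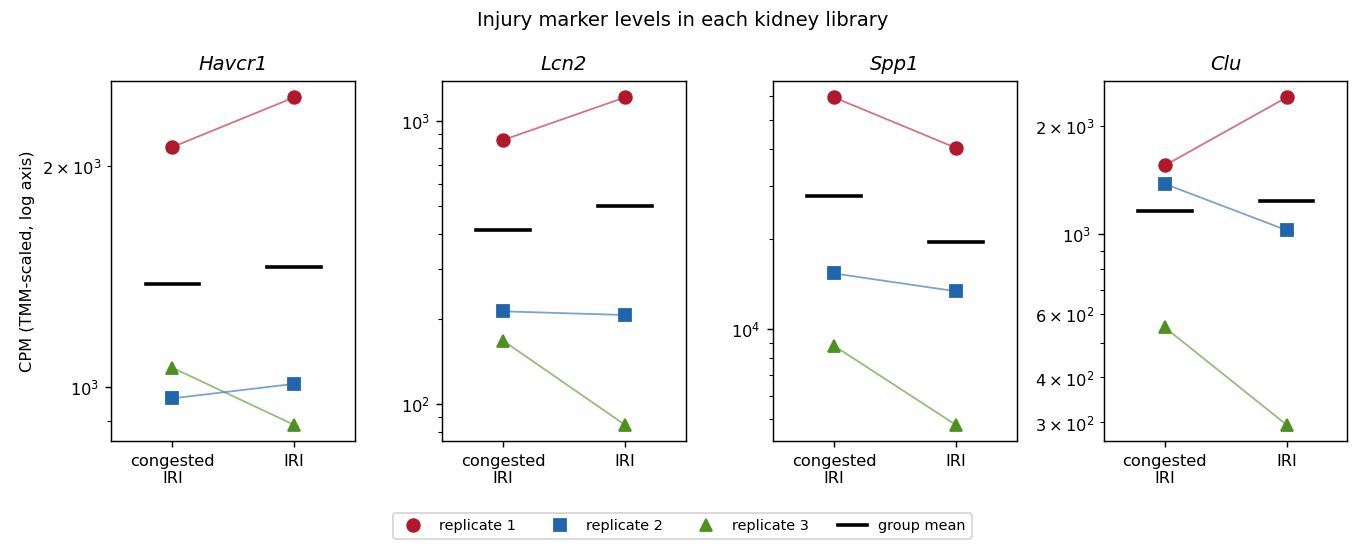
TMM-scaled CPM on a log axis for each gene, with congested IRI left of IRI; points are libraries, lines join libraries with the same replicate number and bars are group means (n = 3). Replicate 1 is the highest library in both groups for all 4 genes, and Spp1 is higher in the congested library for each replicate number.

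None of the 4 genes was called between congested IRI and IRI at an edgeR adjusted p under 0.05, and neither was any other gene, the share called being 0% of 14274. At an unadjusted p under 0.05 edgeR held 285 genes (2.0%), none of them a member, whose unadjusted p ran from 0.589 for Spp1 to 0.898 for Clu. The count was 0 as well in DESeq2, where 354 genes had an unadjusted p under 0.05, and in limma-voom, where 276 had one. Groups that do not overlap were found in 6.49% of genes and in 0 of the 4 members.

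Within equal replicate numbers the sign of the difference held in all 3 numbers for Spp1 and not for the other 3 genes. Spp1 was higher in the congested library of every number, by log2 0.56 in replicate 1, 0.20 in replicate 2 and 0.88 in replicate 3. Over all tested genes, 13.1% were higher in congested kidney in all 3 numbers, so this evenness by itself is common. Lcn2 was lower by log2 in replicate 1 (-0.50), nearly level in replicate 2 (0.04) and higher in replicate 3 (0.98). Clu followed the same order of numbers, at -0.63, 0.43 and 0.90 in replicates 1, 2 and 3. Havcr1 moved least, at -0.22, -0.07 and 0.26. In replicate 3 all 4 genes were thus higher in the congested library, and in replicate 1 Spp1 alone was.

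With the replicate number as a block in edgeR, a paired fit, the log2 fold change of Spp1 was 0.54 (standard error 0.23), which is 1.46-fold. Its unadjusted p was 0.0421, where 7.06% of genes had one under 0.05, and its adjusted p over all genes was 0.577, so it was not called. The same fit gave 0.17 for Lcn2 (95% interval -0.49 to 0.83), 0.24 for Clu (-0.45 to 0.92) and -0.01 for Havcr1 (-0.48 to 0.46), with edgeR adjusted p of 0.805, 0.742 and 0.983. For Lcn2 and Clu the sign was thus opposite to that without the block. Havcr1 had the narrowest of the 4 intervals. With the same block DESeq2 gave Spp1 a log2 fold change of 0.53 (standard error 0.67, unadjusted p = 0.428). In limma-voom with the block it was 0.55 (standard error 0.22, unadjusted p = 0.0361), so the low p of Spp1 depended on the tool.

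**Figure D2:**
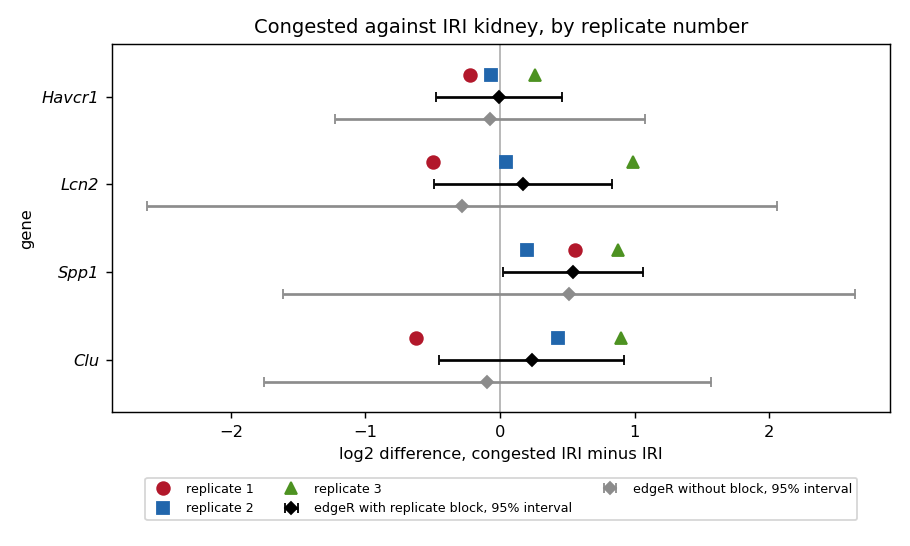
Log2 difference of congested IRI minus IRI for each gene, with coloured symbols for the 3 replicate numbers, a black diamond for edgeR with the replicate number as a block and a grey diamond for edgeR without it; bars are 95% intervals. The blocked interval of Spp1 lies just above 0, at 0.02 to 1.06, and the other 7 intervals cross 0.

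Leaving out replicate 1 of either group moved each unblocked value by more than its own size. With IRI replicate 1 left out, congested over IRI came to log2 1.51 for Lcn2, 1.62 for Spp1, 0.82 for Clu and 0.55 for Havcr1. Without congested replicate 1 that of Spp1 was -0.70, of Lcn2 -1.41, of Clu -0.37 and of Havcr1 -0.53. No member was called in any of these fits.

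All 4 genes differed between replicate numbers, in a fit with group and number as terms. In each group replicate 1 held more than replicates 2 and 3 for 4 of 4 members, as it did for 27.7% of all tested genes. Here edgeR called 8.01% of the 14274 genes, 1144 in all, at an adjusted p under 0.05. Those with replicate 1 highest and replicate 3 lowest, the order that the fit gave for each of the 4, were 3.10% of genes. For Havcr1 replicates 2 and 3 were 0.02 apart in that fit. In congested kidney its replicate 3, at 1063 CPM, lay above its replicate 2, at 966.2 CPM. The fitted range over numbers, highest minus lowest on the log2 scale, was 3.07 for Lcn2 (edgeR adjusted p = 0.00552), 2.90 for Spp1 (0.00353), 2.28 for Clu (0.0254) and 1.24 for Havcr1 (0.0272). As folds these are 8.42, 7.48, 4.86 and 2.35, against a median log2 range of 0.55 over all tested genes. The ranges of Lcn2 and Spp1 exceeded those of 98.9% and 98.6% of genes, that of Clu 96.9% and that of Havcr1 85.6%.

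The genes differed in which replicate numbers stood apart. For Havcr1, replicate 1 was 1.22 above replicate 2 on the fitted log2 scale, while replicates 2 and 3 were 0.02 apart. For Clu the gap was 0.76 between replicates 1 and 2 and 1.52 between replicates 2 and 3. Lcn2 and Spp1 fell between these shapes, with gaps of 2.32 and 1.76 between replicates 1 and 2, and of 0.76 and 1.14 between replicates 2 and 3. Whether these shapes differ from each other was not tested. Of the variance of log2 CPM over the 6 libraries, the replicate number held 97.1% for Havcr1, 94.4% for Lcn2, 93.9% for Spp1 and 88.5% for Clu. The group held 0.427% for Lcn2, 1.34% for Clu and 4.84% for Spp1, and under that of Lcn2 for Havcr1. The number has 2 degrees of freedom and the group 1, so the 2 kinds of share are not alike. They were not set against the shares of all genes.

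Single libraries decided some of these calls. Without replicate 1 of both groups Havcr1 and Lcn2 were not called, with ranges of 0.02 and 0.81 (edgeR adjusted p = 0.999 and 0.658). Without replicate 3 of both groups Clu was not called, with a range of 0.69 (edgeR adjusted p = 0.147). With 1 library left out, Havcr1 missed the call without congested replicate 2 (edgeR adjusted p = 0.0582) and without IRI replicate 1 (0.273), and Clu missed it without IRI replicate 3 (0.0835). Spp1 was called in each of the 9 fits that left out a library or a number, at an adjusted p of at most 0.0311. The number of genes called over the whole table also moved, to 5207 without IRI replicate 3 and 7841 without congested replicate 3.

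**Figure D3:**
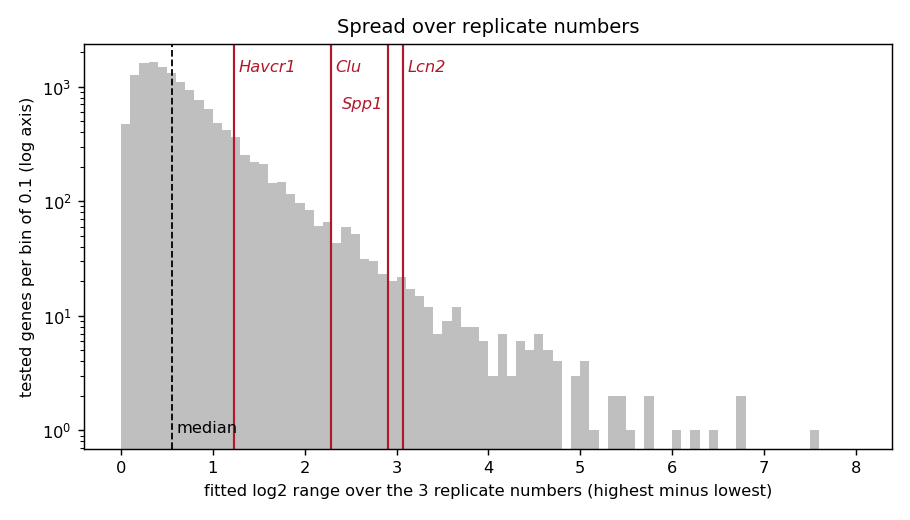
Number of tested genes (log axis) by fitted log2 range over the 3 replicate numbers in bins of 0.1, with red lines at the 4 members and a dashed line at the median of 0.55. Lcn2, Spp1 and Clu lie in the right tail at 3.07, 2.90 and 2.28, and Havcr1 at 1.24 is nearer the bulk.

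Levels of different genes were compared as transcripts per 1e+06 (TPM), which divides counts by the length of the longest annotated transcript. Spp1 was the highest of the 4 in all 6 libraries, at 86336, 26711 and 14878 TPM in congested replicates 1, 2 and 3, against 45524, 18248 and 8273 TPM in IRI replicates 1, 2 and 3. Lcn2 was the lowest in all 6 libraries, at 160.5 to 1500 TPM. Havcr1 and Clu stood between them and changed places. Havcr1 averaged 1626 ± 579 TPM in congested IRI and 1415 ± 579 TPM in IRI, and Clu 1552 ± 675 TPM in congested IRI and 1282 ± 921 TPM in IRI (SD, n = 3 each), so these neighbours did not differ beyond their spread.

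Ratios within a library do not depend on scaling between libraries. The Havcr1 to Lcn2 ratio of counts was 2.48, 4.54 and 6.34 in congested replicates 1, 2 and 3, against 2.05, 4.89 and 10.5 in IRI replicates 1, 2 and 3. It was lowest in replicate 1 and highest in replicate 3 of each group. The Lcn2 to Spp1 ratio of counts was much steadier, at 0.0144, 0.0139 and 0.0191 in congested replicates 1, 2 and 3. In IRI replicates 1, 2 and 3 it was 0.0301, 0.0155 and 0.0177, so IRI replicate 1 alone stood out. The Spp1 to Clu ratio lay between 11.1 and 16.8 in 5 libraries and at 38.2 in congested replicate 1.

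Nearness of pattern was measured as the root mean square difference of log2 CPM, each gene centred over the 6 libraries. By this measure Spp1 was 0.37 from Lcn2, and 15 of the other 14273 tested genes were nearer to Lcn2. The 3 nearest to Lcn2 were 2010003K11Rik (0.13), Id1, an inhibitor of helix-loop-helix factors (0.21), and Cbr3, a carbonyl reductase (0.24). The 3 nearest to Spp1 were Glipr2 (0.16), Naip1, an inflammasome sensor that held under 1 CPM in 4 libraries (0.17), and Arhgap15, a GTPase-activating protein (0.18). The 3 nearest to Clu were S100a14 (0.13), the innate immune adaptor Sting1 (0.18) and Sfn, which encodes 14-3-3 sigma (0.24). The 3 nearest to Havcr1 were Tatdn1 (0.10), Gm9892 (0.10) and the ribosome assembly gene Utp14a (0.10), and 7719 genes were nearer to Havcr1 than Clu, the nearest other member. These distances describe 6 libraries and carry no test.

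Other genes of the injured tubule state, a list of 25 that includes keratins, the repair factor Sox9 and heme oxygenase Hmox1, were also mostly called between replicate numbers and not between the groups. Between congested IRI and IRI 0 of 25 were called in either direction, with a median log2 fold change of 0.10 against -0.0046 over all tested genes. With congested replicate 1 left out the list's median was -0.59, and with IRI replicate 1 left out it was 1.14. The 2 with the smallest p were C3, the central complement component, and Cd44, a receptor for osteopontin and hyaluronan. Their log2 fold changes were 0.41 for C3 (standard error 0.22) and 1.32 for Cd44 (0.88). Between replicate numbers 21 of 25 were called, 20 of them with replicate 1 highest, where 8.01% of all genes were called and 3.51% were called with replicate 1 highest. Sox9 held 29.7, 6.44 and 1.26 CPM in congested replicates 1, 2 and 3, against 22.7, 2.39 and 0.883 CPM in IRI replicates 1, 2 and 3. Sprr2f, a cornified envelope gene, ranged from 1.33 to 53.7 CPM in congested IRI and from 0.265 to 52.1 CPM in IRI. Without replicate 1 of both groups 9 of the 25 were called, and with 1 library left out 19 to 24. Over the whole table the first of these fits called 159 of 14402 genes, and those with 1 library left out 854 to 7841.

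**Figure D4:**
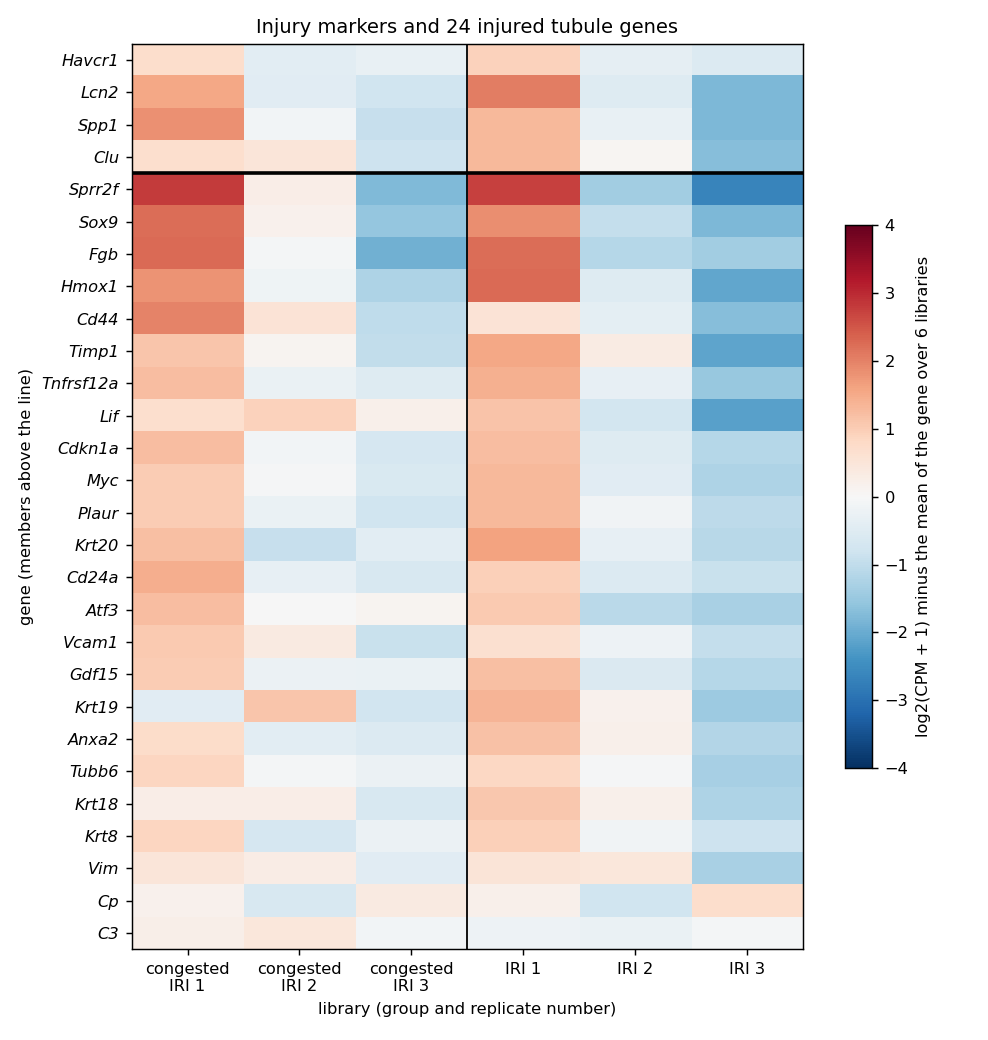
Each row is a gene, members above the line and 24 injured tubule genes below, sorted by their range over replicate numbers; columns are the 3 congested IRI libraries and then the 3 IRI libraries; colour is log2(CPM + 1) minus the gene's mean over the 6 libraries. Replicate 1 of both groups is warm and IRI replicate 3 is cold for most rows, while Krt19, Cp and C3 are among the rows that do not follow this order.

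Other injury biomarkers of urine or tissue were less uniform. Of 11 tested, 0 were called between congested IRI and IRI, with a median log2 fold change of -0.28 and with Mif and Cst3 (cystatin C) having the smallest p, at log2 -0.49 for Mif, a cytokine gene, and -0.47 for Cst3. Between replicate numbers 4 were called, where 8.01% of all genes were. Egf, an epidermal growth factor gene of the distal tubule, ran opposite to the members, at 13.8, 268.3 and 591.3 CPM in congested replicates 1, 2 and 3, against 16.8, 392.5 and 815.1 CPM in IRI replicates 1, 2 and 3. Transferrin (Trf), the fatty acid carrier Fabp1 and the retinol carrier Rbp4 were highest in replicate 1. Transferrin held 137.7, 38.0 and 47.3 CPM in congested replicates 1, 2 and 3, against 119.8, 28.3 and 33.9 CPM in IRI replicates 1, 2 and 3. The count was 9 of 11 with congested replicate 3 left out, 8 with IRI replicate 3 left out, and 1 with replicate 1 of both groups left out. Leaving out either replicate 2 gave 6. Over the whole table edgeR called 7841 of 14682 genes without congested replicate 3 and 5207 of 14663 without IRI replicate 3. It called 159 of 14402 without replicate 1 of both groups.

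Receptors and partners of the 4 proteins were listed from their known biology. Of 10 receptor genes for osteopontin, 0 were called between congested IRI and IRI, 9 lay above 0 and the median log2 fold change was 0.38. Over all tested genes 7081 of 14274 lay above 0 and the median was -0.0046. The integrin gene Itga4 held 2.96, 2.34 and 1.57 CPM in congested replicates 1, 2 and 3, against 0.795, 1.02 and 1.41 CPM in IRI replicates 1, 2 and 3. Itga9, whose product pairs with integrin beta 1, held 12.9, 16.3 and 17.3 CPM in congested replicates 1, 2 and 3, against 9.78 to 12.1 CPM in the IRI libraries. Both had groups that did not overlap, as 6.49% of all genes did, and edgeR adjusted p of 0.933. Congested over IRI came to log2 1.08 for Itga4 (standard error 0.41) and 0.50 for Itga9 (0.22). With congested replicate 1 left out the list's median was 0.13, and with IRI replicate 2 left out 0.23. Between replicate numbers, where 8.01% of all genes were called, 3 of the 10 were. These were Cd44 and Itga5 with replicate 1 highest and Itga8 with replicate 1 lowest. That count was 7 of 10 without congested replicate 3 and also without IRI replicate 3, and it was 1 with replicate 1 of both groups left out. The same fits called 7841 of 14682, 5207 of 14663 and 159 of 14402 genes over the whole table. Cd44 held 33.0, 11.6 and 3.30 CPM in congested replicates 1, 2 and 3, against 11.7, 5.64 and 1.68 CPM in IRI replicates 1, 2 and 3.

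The endocytic receptor Lrp2 (megalin) takes up both NGAL and clusterin in the proximal tubule. It was lowest in replicate 1 of each group, where Lcn2 and Clu were highest. It held 620.3, 1851 and 1716 CPM in congested replicates 1, 2 and 3, against 740.0, 1460 and 1954 CPM in IRI replicates 1, 2 and 3 (edgeR adjusted p between numbers = 0.0297). From replicate 2 to replicate 3 Lrp2 fell in congested kidney, as Lcn2 and Clu did, and rose in IRI kidney, where Lcn2 and Clu fell. Of the Lcn2 list the other receptor gene, Slc22a17, was not called in either comparison. Mmp9, whose protein binds NGAL, was called between replicate numbers with replicate 1 highest, at 0.392 to 6.46 CPM in congested IRI and 0.0854 to 1.67 CPM in IRI. Among the 3 tested Clu receptors Vldlr and Lrp8 had log2 fold changes of 0.31 and 0.42, 0 were called between the groups, and Lrp8 was called between numbers with replicate 1 highest. In both the Lcn2 and the Clu list, which share Lrp2, 2 of 3 were called between numbers, where 8.01% of all genes were. The count was 1 of 3 without congested replicate 1 or IRI replicate 1, and 3 of 3 without congested replicate 3. Without replicate 1 of both groups it was 0 of 2 tested for Lcn2 and 0 of 3 for Clu. The Lcn2 list was also at 3 of 3 without IRI replicate 3. Over the whole table edgeR called 1207 of 14627 genes without congested replicate 1 and 854 of 14608 without IRI replicate 1. It called 7841 of 14682 without congested replicate 3 and 5207 of 14663 without IRI replicate 3. Without replicate 1 of both groups it called 159 of 14402.

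Known regulators of these genes were called between replicate numbers in 6 of 12 tested cases and between the groups in none. Between congested IRI and IRI 0 of 12 were called, with a median log2 fold change of 0.26, and Fos and Il1b had the smallest p, at log2 1.08 for Fos (standard error 0.56) and 1.5 for Il1b (0.94). Leaving out congested replicate 1 brought the list's median to 0.01, and leaving out IRI replicate 1 to 0.86. The 6 called between replicate numbers, where 8.01% of all genes were called, all had replicate 1 highest. Cebpb and Cebpd, factors of the acute-phase response, were among them. Cebpb held 25.7, 10.7 and 7.06 CPM in congested replicates 1, 2 and 3, against 46.0, 14.4 and 13.1 CPM in IRI replicates 1, 2 and 3. Il1b held 7.81, 2.12 and 0.863 CPM in congested replicates 1, 2 and 3, against 2.62, 0.768 and 0.353 CPM in IRI replicates 1, 2 and 3. Between numbers 11 of 14 were called without congested replicate 3 and 10 of 14 without IRI replicate 3, where 14 passed the filter, and 2 of 12 without replicate 1 of both groups. The same fits called 7841 of 14682, 5207 of 14663 and 159 of 14402 genes over the whole table.

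Markers of other cells that make Lcn2 or Spp1 moved with the replicate numbers too. Of the 13 neutrophil markers in the table, the summed level was 257.3, 18.2 and 8.55 CPM in congested replicates 1, 2 and 3, against 84.3, 9.73 and 5.91 CPM in IRI replicates 1, 2 and 3. From 1 to 2 of the 13 were at 0 in congested libraries and from 0 to 4 in IRI libraries. All 5 that were tested were called between numbers with replicate 1 highest, and the neutrophil surface gene Ly6g held at most 0.359 CPM. The 14 monocyte and macrophage markers summed to 426.5, 133.2 and 127.1 CPM in congested replicates 1, 2 and 3, against 198.3, 124.1 and 126.2 CPM in IRI replicates 1, 2 and 3, with 1 marker at 0 in congested replicate 3. Of these, 13 were tested and 4 were called between numbers, against 7 without IRI replicate 1 or IRI replicate 2. Over the whole table edgeR called 8.01% of genes in the main fit. It called 854 of 14608 without IRI replicate 1 and 1680 of 14601 without IRI replicate 2. In replicate 1 both sums were higher in the congested library, whereas Lcn2 was lower there and Spp1 higher. The part of these cells in the levels of Lcn2 and Spp1 was not tested.

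Tubule markers ran the other way. Proximal tubule markers were called between numbers in 8 of 20 cases, thick ascending limb markers in 5 of 10 and collecting duct markers in 6 of 12 tested, all with replicate 1 lowest. Without congested replicate 3 the proximal tubule count was 19 of 20 and the collecting duct count 12 of 12, and without IRI replicate 3 they were 18 and 11. Without congested replicate 1 they were 5 and 1. Calls over the whole table were 7841 of 14682 genes without congested replicate 3 and 5207 of 14663 without IRI replicate 3. They were 1207 of 14627 without congested replicate 1 and 8.01% of genes in the main fit. The thick ascending limb sum was 2049, 3735 and 7181 CPM in congested replicates 1, 2 and 3, against 1655, 6858 and 7225 CPM in IRI replicates 1, 2 and 3. The collecting duct sum was 430.6 to 1101 CPM in congested IRI and 684.3 to 1427 CPM in IRI. Without replicate 1 of both groups 0 markers of these 3 lists, and 0 of the neutrophil and macrophage lists, were called by edgeR, with 2 neutrophil markers left to test. That fit called 159 of 14402 genes over the whole table, so few calls would be found in any short list. Endothelial markers were called in 3 of 10 cases and fibroblast and mural markers in 6 of 10, all with replicate 1 lowest, while 0 of 10 podocyte and 0 of 5 red blood cell markers were called. Without congested replicate 3 edgeR called 7 endothelial, 10 fibroblast and mural, 7 podocyte and 5 red blood cell markers, and without IRI replicate 3 it called 4, 9, 5 and 3 in the same order. Without congested replicate 1 it called 0, 3, 0 and 1, and it called 1 endothelial marker without congested replicate 2 and 0 without IRI replicate 1. These counts stand beside 7841 of 14682 genes called over the whole table without congested replicate 3 and 5207 of 14663 without IRI replicate 3. Whole-table calls were 1618 of 14611 without congested replicate 2 and 854 of 14608 without IRI replicate 1. Between congested IRI and IRI 0 markers of any list were called in the main fit, and DESeq2 with the replicate block called 1 of 5 tested neutrophil markers. Over the whole table the main fit called 0 of 14274 genes between the groups, and that DESeq2 fit called 8 of 14274. The part of these cell types in the levels of the 4 genes was not tested.

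**Figure D5:**
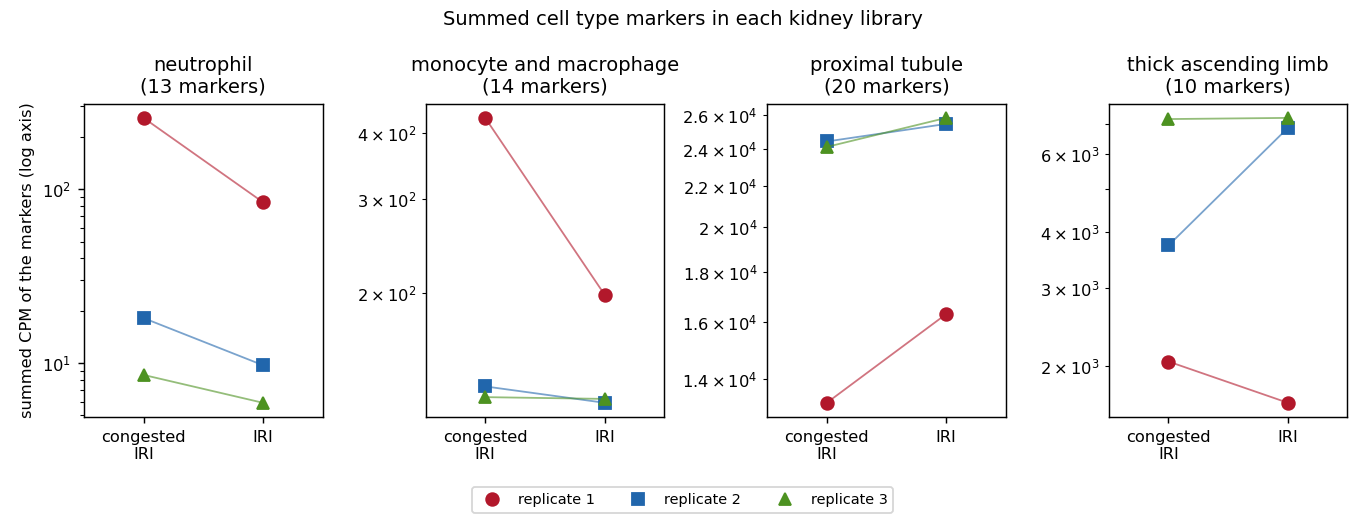
Summed TMM-scaled CPM of 4 marker lists on log axes, congested IRI left of IRI, with lines joining libraries of the same replicate number. Replicate 1 of both groups has the highest neutrophil and macrophage sums and the lowest proximal tubule and thick ascending limb sums, and the neutrophil sum reaches 257.3 CPM in congested replicate 1.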

How the data were processed

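Kidney cortex RNA was sequenced from stranded mRNA libraries, per the labels' protocols. The deposited table holds raw counts for each gene as whole numbers, made by the authors without normalization. The submitters' processing notes name STAR 2.7.10a, featureCounts, Subread and GRCm38, and their strand and multimapping settings are not stated there. Members and lists were chosen with earlier results of these data known.

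The whole table was tested with edgeR 4.0.16 in R 4.3.3 (TMM, filterByExpr with minimum count 10 and total 15, robust quasi-likelihood F test, Benjamini-Hochberg adjustment over all tested genes, threshold 0.05). Groups were compared without a block. Replicate numbers were compared by an F test in a fit with group and number. Log2 CPM used a prior count of 2. Lengths came from the GENCODE annotation, which matched 95.6% of tested genes, and promoters from RefSeq (GRCm38.p6).

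Across genes, the deviations of same-numbered libraries from their group means had correlations of 0.724, 0.342 and 0.429 for numbers 1, 2 and 3. Congested replicate 3 with IRI replicate 2 had 0.401, and congested replicate 2 with IRI replicate 3 had 0.249. These values set replicate 1 apart and do not separate numbers 2 and 3. In fits with a block the numbers were taken to pair the libraries, although the labels do not say what a number shares. Chi-square per degree of freedom between replicates of a group was 17.2 to 175, so none was counted as a duplicate. The fits were checked on simulated data with planted changes. Between congested IRI and IRI 3% of 2-fold and 76% of 4-fold changes were called, and between replicate numbers 44% and 100%. The absence of calls between the groups thus says little about changes of 2-fold. These shares describe the planted changes and were not measured for the members. Without the block, the log2 intervals of Lcn2 (-2.62 to 2.06) and Spp1 (-1.61 to 2.64) took in a 4-fold rise. That of Lcn2 took in a 4-fold fall too. The intervals of Havcr1 (-1.23 to 1.07) and Clu (-1.76 to 1.57) took in neither.

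Alternatives were other scaling factors and filters, DESeq2 1.42.0, limma-voom (limma 3.58.1), the replicate block, a length and GC trend (mgcv 1.9.3), and libraries or numbers left out. Scaling by total counts without Spp1, and the marker and list counts under each alternative, were added after seeing the data. From each list the text names at most 3 called genes, or 2 by smallest p where none was called, with a few further values given after they were seen, and the 3 genes nearest to each member in pattern. The values of 1 gene of the injured tubule list are not reported here.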

Additional observations from a re-analysis of the deposited data

How the results depend on the processing

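Between replicate numbers Spp1 was called under every alternative run, and Lcn2, Clu and Havcr1 under every one that used all 6 libraries, with log2 ranges of 2.87 to 3.10 for Lcn2, 2.10 to 2.30 for Clu and 0.96 to 1.25 for Havcr1. With single libraries left out the log2 range lay at 1.08 to 1.43 for Havcr1, 2.49 to 3.70 for Lcn2, 2.66 to 3.16 for Spp1 and 1.61 to 2.91 for Clu. Without replicate 1 of both groups it was 0.0198 for Havcr1, 0.81 for Lcn2 and 1.14 for Spp1, and without replicate 3 of both groups 0.69 for Clu. The count of 1144 genes called was 3231 without a filter, 1863 with DESeq2 and 2100 once a trend with length and GC content was removed, and it was 159, 2093 and 5270 without replicates 1, 2 and 3 of both groups. With single libraries left out it ranged from 854 (without IRI replicate 1) to 7841 (without congested replicate 3), and was 5207 without IRI replicate 3.

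Between congested IRI and IRI no member was called under any alternative, and among those that used all libraries only the sign of Spp1 held in each. Havcr1 turned to 0.052 with total counts, 0.070 with total counts without Spp1, 0.087 with that length and GC trend removed, 0.12 with the replicate block and that trend removed, and 0.099 without replicate 1 of both groups. Clu turned to 0.066 with total counts, 0.077 without Spp1 in them, 0.24 in limma-voom, 0.21 with the trend removed and 0.55 without replicate 1 of both groups, and with the replicate block to 0.24 in edgeR, 0.23 in DESeq2, 0.25 in limma-voom and 0.43 with the trend removed. Lcn2 turned to 0.20 in limma-voom, 0.16 with the trend removed and 0.39 without replicate 1 of both groups, and with the replicate block to 0.17 in edgeR, 0.16 in DESeq2, 0.21 in limma-voom and 0.45 with the trend removed. With libraries left out the log2 fold change was -0.53 to 0.55 for Havcr1, -1.41 to 1.51 for Lcn2, -0.70 to 1.62 for Spp1 and -0.56 to 0.82 for Clu. DESeq2 with the replicate block called 8 genes, none of them a member, and each other alternative 0. Total counts without Spp1 moved the median of all genes to 0.11, so Havcr1 and Clu lay below that shift there. The cause of these changes was not tested. The block changed no call of a member. Each group held 3 libraries, and no member had fewer than 960 counts in any of them.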

Other observations

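Most relatives of the members were at low levels in these kidneys. Of the TIM family, to which Havcr1 belongs, Timd2 was the one tested gene and, like Havcr1, was highest in replicate 1 of each group. It held 692.7, 237.6 and 181.8 CPM in congested replicates 1, 2 and 3, against 849.7, 239.8 and 158.6 CPM in IRI replicates 1, 2 and 3, and was called between replicate numbers (log2 range 2.18, edgeR adjusted p = 0.00454) and not between the groups (log2 fold change -0.17, standard error 0.73). Without replicate 1 of both groups it was not called between numbers. Havcr2 held at most 2.42 CPM and Timd4 at most 0.0732 CPM. Whether reads of Timd2 and Havcr1, which are related in sequence, were shared in the authors' counting is not given in the sources used here.

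Of the lipocalin family, to which Lcn2 belongs, 3 of 7 genes in the table were tested. Apom, a carrier of sphingosine 1-phosphate, held 23.5, 38.4 and 38.1 CPM in congested replicates 1, 2 and 3, against 47.2, 69.1 and 33.5 CPM in IRI replicates 1, 2 and 3 (log2 fold change -0.58, standard error 0.32). Ptgds, a prostaglandin D synthase, came to -0.54 on the log2 scale (standard error 0.39). Rbp4 alone was called between replicate numbers, with replicate 1 highest, and 0 were called between the groups. With 1 library left out 1 to 3 were called between numbers. The 3 were of 4 tested, without congested replicate 3 and also without IRI replicate 3. Those fits called 7841 of 14682 and 5207 of 14663 genes over the whole table. Of the SIBLING family, to which Spp1 belongs, 2 genes were in the table, Dmp1 and Dspp, and both lay under 1 CPM in every library.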
